A study of Homo sapiens with 2 samples.

Results

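Strong RUNX2 peaks at which no MTA1 peak was called are described here, 1444 regions out of 61717 RUNX2 peaks in all. They were chosen by 2 measured values, a RUNX2 peak score of 15 or more and the absence of any MTA1 peak within 1 kb of either edge, on chromosomes 1 to 22 and X. Both values therefore describe the regions and are not findings about them. Of 11857 RUNX2 peaks that reached this score, 12.2% met the rule, beside 48.2% of all RUNX2 peaks on the same chromosomes. A further 10198 strong peaks (86.0%) shared 1 bp or more with an MTA1 peak and served as the comparison, and 215 (1.81%) had an MTA1 peak within 1 kb without touching it and belong to neither set. In what follows, "RUNX2-only peaks" are the 1444 regions, and "shared peaks" are the 10198.

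The peaks came from untreated MDA-MB-231 cells, an established human line of triple-negative breast cancer, with 1 library for RUNX2 and 1 for MTA1. The paper's methods name CUT&Tag as the assay. In this assay an antibody holds a transposase at its target, and the DNA cut there is sequenced. No replicate, input or control antibody library was analysed here, so none of the differences below can be tested against the spread between libraries, and the 95% intervals cover the counting of peaks only. The labels and the methods name different suppliers for both antibodies, and the labels describe a ligation-based library that is not usual for this assay, so the preparation behind the lists is uncertain. The labels also name the hg19 build, whereas the listed positions fit the gene starts of GRCh38, and coordinates are given as listed and read as GRCh38.

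RUNX2 is a DNA-binding transcription factor best known for driving osteoblast differentiation, and it is also expressed in invasive breast cancer cells, where bone matrix and protease genes are among its known targets. It binds a short core motif through its Runt domain together with the partner CBFB, and it recruits either activating or repressing cofactors. MTA1 is a subunit of NuRD, a complex that combines nucleosome remodelling with histone deacetylation. NuRD can be brought to chromatin by transcription factors, so sites bound by RUNX2 with and without MTA1 are of interest beside each other. A missing MTA1 peak means here that no MTA1 signal passed the calling threshold of its library. A peak near a gene does not show that the gene is regulated from it.

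The only sequence at hand was the RefSeq GRCh38.p14 promoter window of 300 bases around annotated gene starts, 250 before and 50 after. RUNX2-only peaks covered 150 bases or more of such a window at 22 regions, and shared peaks did so at 2391. Motifs were counted over all 300 bases of these windows, so a match can lie outside the peak. The RUNX core, spelled TGTGGT or ACCACA on the other strand, stood in 10 of the 22 windows under RUNX2-only peaks (45.5%, exact 95% interval 24.4 to 67.8). It stood in 13.6% of the windows under shared peaks (12.3 to 15.1) and in 13.1% of all 34961 windows in the table. The stretches before the start that lie under the peak are printed below for 6 protein-coding promoters where the stretch holds the core and for 2 where it does not, with the core in capitals. They are the highest-scoring RUNX2-only peaks of each kind at the promoter of a protein-coding gene with a start in the table, apart from 1 bidirectional promoter near MRFAP1L2. The 2 highest-scoring shared peaks at a promoter follow for contrast. All are read from 5′ to 3′ in the direction of the gene.

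PTPN22: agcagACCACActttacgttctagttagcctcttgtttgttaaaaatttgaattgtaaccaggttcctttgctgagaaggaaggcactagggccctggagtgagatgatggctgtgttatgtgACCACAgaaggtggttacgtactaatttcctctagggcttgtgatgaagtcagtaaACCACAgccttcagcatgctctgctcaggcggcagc
KIAA1217: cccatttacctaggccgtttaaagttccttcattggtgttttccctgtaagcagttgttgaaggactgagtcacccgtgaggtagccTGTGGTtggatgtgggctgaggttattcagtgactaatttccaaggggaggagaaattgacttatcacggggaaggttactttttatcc
BBS2: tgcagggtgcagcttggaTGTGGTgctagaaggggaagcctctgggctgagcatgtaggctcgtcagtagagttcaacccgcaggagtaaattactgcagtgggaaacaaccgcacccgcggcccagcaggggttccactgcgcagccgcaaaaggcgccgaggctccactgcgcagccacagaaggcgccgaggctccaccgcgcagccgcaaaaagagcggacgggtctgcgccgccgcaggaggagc
ODAPH: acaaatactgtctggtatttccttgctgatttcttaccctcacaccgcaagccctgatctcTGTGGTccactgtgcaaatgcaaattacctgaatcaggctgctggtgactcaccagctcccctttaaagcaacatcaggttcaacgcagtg
PLAC1: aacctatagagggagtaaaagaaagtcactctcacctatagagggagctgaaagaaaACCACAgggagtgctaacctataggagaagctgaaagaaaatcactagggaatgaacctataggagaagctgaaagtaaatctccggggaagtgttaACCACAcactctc
PPFIBP2: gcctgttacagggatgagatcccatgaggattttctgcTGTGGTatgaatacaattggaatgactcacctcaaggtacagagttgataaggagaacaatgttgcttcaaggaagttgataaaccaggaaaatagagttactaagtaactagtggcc
AHNAK, no core: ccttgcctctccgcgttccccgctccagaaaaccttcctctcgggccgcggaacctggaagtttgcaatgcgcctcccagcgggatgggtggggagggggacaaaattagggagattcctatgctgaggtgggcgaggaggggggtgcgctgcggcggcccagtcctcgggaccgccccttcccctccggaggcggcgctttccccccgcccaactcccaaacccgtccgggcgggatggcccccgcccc
CAPN2, no core: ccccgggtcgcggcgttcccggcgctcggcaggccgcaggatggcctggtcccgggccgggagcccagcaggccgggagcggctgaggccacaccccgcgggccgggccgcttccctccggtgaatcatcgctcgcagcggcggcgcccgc
CD55, shared peak: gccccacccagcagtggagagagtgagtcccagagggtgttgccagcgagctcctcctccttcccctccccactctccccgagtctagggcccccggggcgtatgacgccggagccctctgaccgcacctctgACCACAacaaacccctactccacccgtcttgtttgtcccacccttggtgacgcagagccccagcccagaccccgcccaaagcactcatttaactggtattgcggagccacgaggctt
NAPA, shared peak: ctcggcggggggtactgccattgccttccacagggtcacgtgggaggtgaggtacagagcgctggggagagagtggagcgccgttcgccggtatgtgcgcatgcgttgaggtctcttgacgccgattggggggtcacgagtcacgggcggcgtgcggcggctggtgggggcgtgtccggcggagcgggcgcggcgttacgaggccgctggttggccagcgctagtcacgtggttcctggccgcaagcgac

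PTPN22 encodes a tyrosine phosphatase that restrains signalling from lymphocyte antigen receptors, and its promoter stretch (chr1:113871713-113871927, minus strand) held 3 copies of the core. The peak over it had a score of 47.5, the highest among RUNX2-only peaks at an annotated promoter, and the nearest MTA1 peak lay 3.02 kb away with a score of 5.15. KIAA1217 (chr10:24466355-24466530, plus strand, peak score 29.2) held 1 core and 1 AP-1 site, and its nearest MTA1 peak lay 1.94 kb away with a score of 24.9. BBS2, a subunit of the complex that carries proteins to the cilium, lay under the widest RUNX2-only peak, 828 bp with a score of 27.7 (stretch chr16:56520025-56520274, minus strand). ODAPH (chr4:75555914-75556065, plus strand, score 19.3), which encodes a tooth enamel phosphoprotein, held 1 core and 1 AP-1 site. PLAC1 (chrX:134764323-134764489, minus strand, score 18.3), a gene known from placenta, held 2 cores and 1 TEAD site. PPFIBP2 (chr11:7605578-7605733, plus strand, score 18.2), which encodes a liprin, held 1 core, 1 AP-1 site and 1 TEAD site in 156 bases.

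GC content varied among the stretches under RUNX2-only peaks, from 36.8% (LINC02998) to 64.8% (BBS2) where the stretch held the core and from 43.5% (PLEKHS1) to 82.6% (EML1) where it did not. AHNAK, which encodes a very large scaffold protein, had a GC content of 70.0% over its stretch (chr11:62545827-62546076, minus strand, peak score 24.3) and 4 GC boxes. CAPN2, which encodes a calpain protease subunit, had a GC content of 80.8% (chr1:223712388-223712538, plus strand, peak score 20.6). The shared peak over CD55 (chr1:207321428-207321677, plus strand), which encodes an inhibitor of complement, had a RUNX2 score of 103 and an MTA1 score of 64.2, with 1 core. The shared peak over NAPA (chr19:47515064-47515313, minus strand), which encodes a factor that recycles SNARE complexes, had scores of 92.3 and 67.6 and no core.

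The windows under the 2 kinds of peak also differed in base composition. The GC box, GGGCGG or CCGCCC, stood in 10 of 22 windows under RUNX2-only peaks (45.5%, 24.4 to 67.8) and in 79.3% of those under shared peaks (77.6 to 80.9), beside 45.0% of all windows. Median GC content was 58.5% under RUNX2-only peaks, 66.0% under shared peaks and 58.7% over all windows, and the mean number of CpG dinucleotides per window was 17.8, 27.1 and 16.9. The AP-1 site TGACTCA or TGAGTCA stood in 3 of the 22 windows (13.6%, 2.91 to 34.9), in 5.65% under shared peaks and in 4.92% of all. The TEAD site GGAATG or CATTCC stood in 9 of the 22 (40.9%, 20.7 to 63.6), in 11.5% under shared peaks and in 14.04% of all. The TEAD and AP-1 letters can share the bases TG, as they do in the PPFIBP2 stretch, and each peak is counted once. The 22 windows thus held the RUNX core and the TEAD letters more often than the windows under shared peaks. They held the GC box less often, and none of these intervals overlap. In the stretch before the start that lay under the peak, TEAD letters stood only at PLAC1, PPFIBP2 and LINC01186. The core stood in this stretch at PTPN22, KIAA1217, BBS2, ODAPH, PLAC1, PPFIBP2, LACC1 and LINC02998. Most TEAD matches thus lay elsewhere in the window, and whether they lie under the peak was not tested. Among shared peaks the share with the core was 10.8% at scores of 15 to 20, 12.2% at 20 to 30, 16.7% at 30 to 50 and 30.5% at 50 and over, while 6 of 14 and 3 of 7 windows held it under RUNX2-only peaks of the 2 lower ranges. The motifs were looked for only at promoters, which hold few of the RUNX2-only peaks, and a match in the letters is not a shown binding site.

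The score of the RUNX2-only peaks ran from 15.0 to 67.96 with a median of 20.5 (quartiles 17.1 and 26.1). Shared peaks ran from 15.0 to 108.13 with a median of 24.6. The share of strong peaks that lacked MTA1 fell along the score, from 681 of 3914 (17.4%, 16.2 to 18.6) at 15 to 20, through 540 of 4227 (12.8%, 11.8 to 13.8) at 20 to 30 and 211 of 2813 (7.50%, 6.55 to 8.54) at 30 to 50, to 12 of 903 (1.33%, 0.688 to 2.31) at 50 and over. Because the sets differ in score, values for shared peaks are given below as weighted values, in which the 4 score ranges have the same weight as among RUNX2-only peaks. The MTA1 peaks under shared peaks followed the RUNX2 score, with a median MTA1 score of 13.4 in the lowest range and 20.2 in the highest, and the lowest MTA1 score in the whole list was 3.006. Of shared peaks in the lowest range, 5.63% sat on an MTA1 peak with a score under 5, and 1.23% did in the highest. A weak MTA1 signal that was not called and a missing one cannot be told apart at the RUNX2-only peaks.

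**Figure D1:**
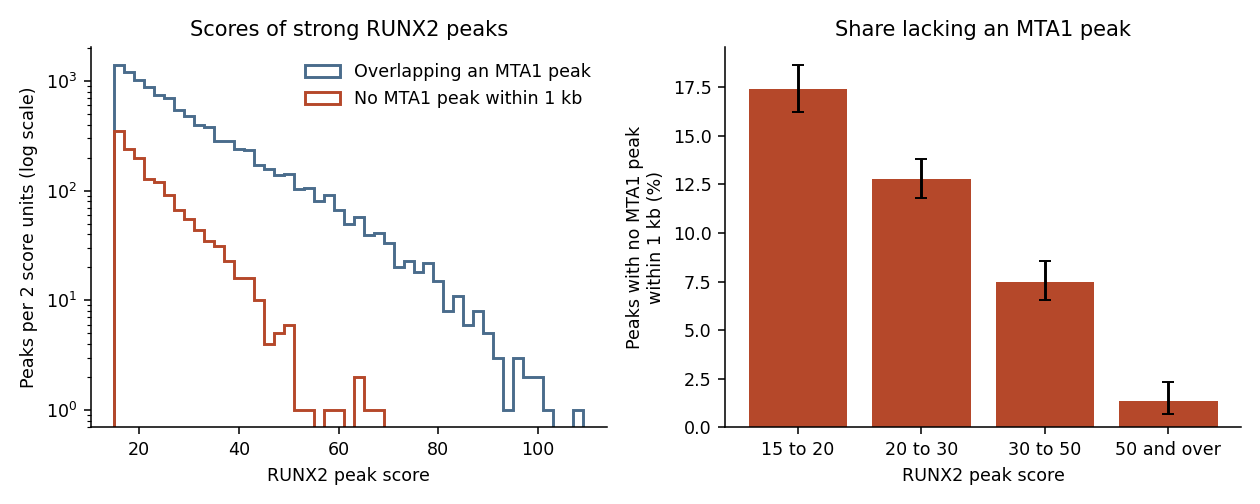
Left, number of strong RUNX2 peaks (log axis) in steps of 2 score units, for peaks with no MTA1 peak within 1 kb and for those overlapping one. Right, share of strong RUNX2 peaks with no MTA1 peak within 1 kb in 4 score ranges, with exact 95% intervals. The share falls from 17.4% to 1.33%.

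The nearest MTA1 peak lay at a median of 13.4 kb from a RUNX2-only peak (quartiles 4.72 and 38.2, highest 984). It was 1 to 5 kb away at 384 regions (26.6%), 5 to 20 kb at 474 (32.8%), 20 to 100 kb at 464 (32.1%) and over 100 kb at 122 (8.45%). Neither score nor width moved with this distance, with median scores of 20.5, 20.8, 20.02 and 20.96 and median widths of 215, 229, 224.5 and 219 bp in the 4 classes. Position in relation to genes did move with it. The share of regions near a gene end was 34.4% (29.6 to 39.4), 19.2% (15.7 to 23.04), 16.6% (13.3 to 20.3) and 9.84% (5.19 to 16.6). MTA1 peaks themselves were often near gene ends. With chromosome 8 left out, 42.7% of them lay within 3 kb of one, against 23.4% and 23.2% after moves of 100 kb. This trend is therefore not independent of the distance that the rule used. The 3 regions farthest from an MTA1 peak were named after their values were seen. They lay nearest to TAFA2 (MTA1 at 984 kb, score 16.1) and inside NLGN4X (955 kb, score 16.1) and CYP7B1 (885 kb, score 26.9). TAFA2 encodes a secreted chemokine-like protein, NLGN4X a synaptic adhesion protein and CYP7B1 an oxysterol hydroxylase.

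RUNX2-only peaks were at gene ends less often than shared peaks. A gene end here is either end of any annotated gene, coding or not, and a peak belongs to it when its centre is within 3 kb. Of the RUNX2-only peaks, 312 of 1444 were at a gene end (21.6%, 19.5 to 23.8), against 45.0% of shared peaks and 47.4% after weighting. The difference to the weighted share was −25.8 percentage points (95% interval −28.2 to −23.4). Over the whole lists, with chromosome 8 left out, 42.7% of MTA1 peaks and 35.4% of RUNX2 peaks were at a gene end. The sets were divided by MTA1 peaks, so this difference and those at starts below are not independent of the rule. Inside a gene and over 3 kb from any gene end were 727 (50.3%, 47.7 to 53.0) against a weighted 35.8%, a difference of 14.5 points (11.7 to 17.3). Intergenic were 405 (28.05%, 25.7 to 30.4) against 16.8%, a difference of 11.3 points (8.82 to 13.7). With chromosome 8 left out, the shares as listed were 22.01% and 45.4%, and the same positions moved by 100 kb to either side, as in the check of the build, gave 20.1% and 21.6% for RUNX2-only peaks and 24.6% and 24.4% for shared peaks. By this measure the RUNX2-only share was near that of the moved positions, and the shared one was well above it. Within 1 kb of an annotated start the RUNX2-only share was 4.01% as listed and 2.77% after either move. The shared one was 29.4% as listed and 3.65% and 3.36% after the moves. The lower share at gene ends was seen in each score range, at 21.9% against 50.5%, 22.04% against 46.3%, 20.4% against 40.9% and 8.33% against 32.5%, although in the highest range only 1 of 12 regions was at a gene end and the intervals overlap. Among RUNX2-only peaks themselves the 3 locations had like scores and widths, with median scores of 20.5, 20.6 and 20.2 and median widths of 224, 223 and 222 bp at gene ends, inside genes and between genes.

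**Figure D2:**
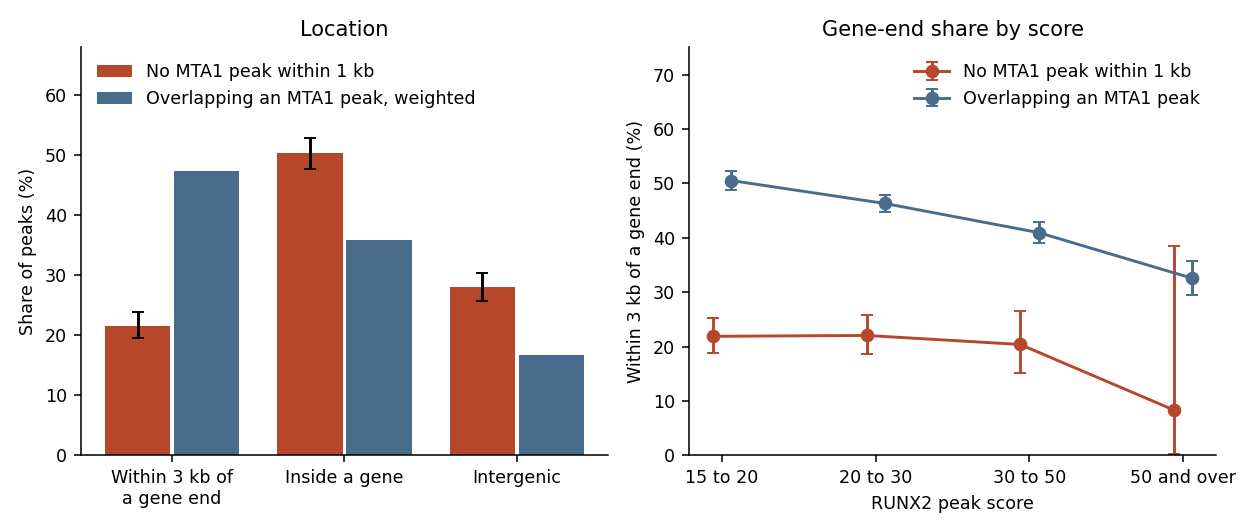
Left, share of peaks within 3 kb of a gene end, inside a gene or intergenic, for RUNX2 peaks with no MTA1 peak within 1 kb (exact 95% intervals) and for those overlapping one, weighted to the same scores. Right, share near a gene end in 4 score ranges with exact 95% intervals. RUNX2-only peaks are lower in each range, from 21.9% against 50.5% to 8.33% against 32.5%.

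At gene starts the difference was of like size. Starts were listed for 15811 of 19970 protein-coding genes, and none on chromosome 8, whose peaks were left out of this measure. Within 1 kb of an annotated start lay 55 of 1372 RUNX2-only peaks (4.01%, 3.03 to 5.19), against a weighted 31.7% of shared peaks, a difference of −27.6 points (−29.1 to −26.2), beside −28.6 points for either gene end with the same window of 1 kb. Within 3 kb of a start the shares were 10.2% and 36.8%. Of the RUNX2-only peaks that were at a gene end, 115 of 302 (38.1%, 32.6 to 43.8) were near a listed start, 81 (26.8%) were near the far end only and 106 (35.1%) were near a gene without a listed strand. Of shared peaks at a gene end, 70.2% were near a start (68.8 to 71.5), 11.0% near the far end only and 18.9% near a gene without a listed strand. Among those with a listed strand, 58.7% of RUNX2-only peaks (51.4 to 65.6) and 86.5% of shared peaks (85.3 to 87.6) were near a start.

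The nearest end of a protein-coding gene lay at a median of 31.6 kb from a RUNX2-only peak (quartiles 9.60 and 88.1), against a weighted 9.83 kb for shared peaks. Over 100 kb away were 320 (22.2%, 20.04 to 24.4) against a weighted 11.5%. Inside a protein-coding gene lay 747 (51.7%, 49.1 to 54.3) against a weighted 61.4%. Among peaks over 3 kb from a coding gene end these shares were closer, 655 of 1295 (50.6%) against 54.0%, a difference of −3.43 points (−6.46 to −0.395). The coding genes around these inner RUNX2-only peaks had a median span of 156 kb against a weighted 122 kb around shared ones, and the median place along the gene from its start was 44.9% and 46.7% of the length. Of the other RUNX2-only peaks, 202 overlapped a non-coding gene or pseudogene only, 185 of these a long non-coding RNA gene, and 495 overlapped no annotated gene.

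**Figure D3:**
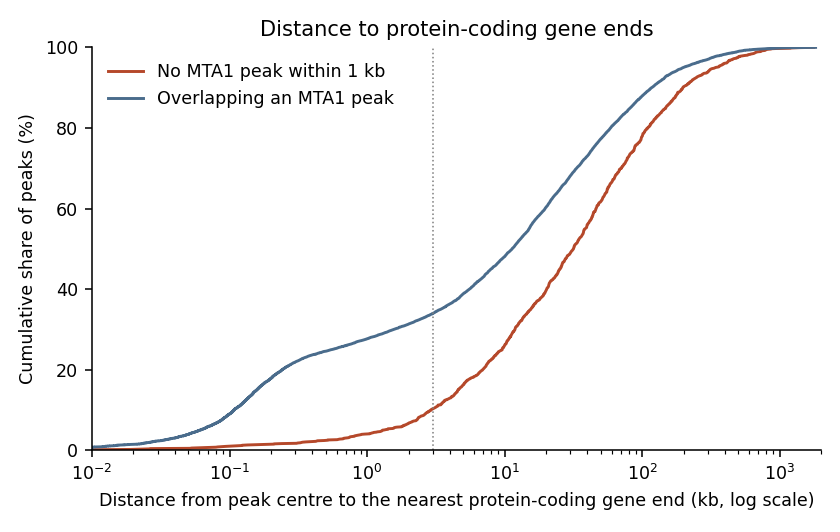
Cumulative share of peaks by distance from the peak centre to the nearest end of a protein-coding gene (kb, log axis, distances under 0.01 kb drawn at that value), for RUNX2 peaks with no MTA1 peak within 1 kb and for those overlapping one, unweighted. The dotted line marks 3 kb, by which 10.3% of the former and 33.9% of the latter are reached. The medians are 31.6 and 11.3 kb.

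RUNX2-only peaks were narrow for their score. Their median width was 223 bp (quartiles 186 and 288, range 114 to 828), against 327 bp for shared peaks and 306 bp after weighting. Within score ranges the medians were 204 against 274 bp, 231.5 against 316 bp, 270 against 374 bp and 380.5 against 446 bp. Under 200 bp wide were 499 RUNX2-only peaks (34.6%, 32.1 to 37.1) against a weighted 13.0%, and 500 bp or more were 30 (2.08%, 1.41 to 2.95) against 13.4%. The 3 widest were the BBS2 promoter peak, a peak of 795 bp inside NDUFA12 (score 33.2), which encodes a complex I accessory subunit, and a peak of 770 bp near an end of TMEM255B (score 17.3).

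**Figure D4:**
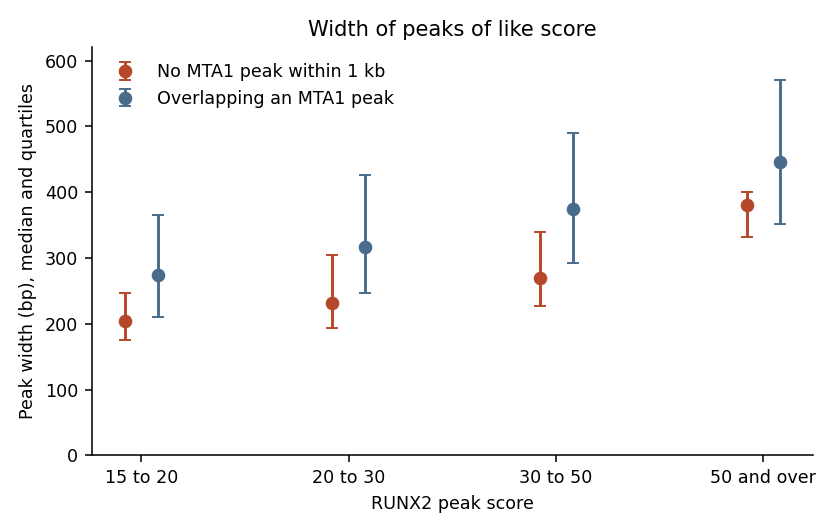
Median peak width in bp (points) with quartiles (bars) in 4 ranges of RUNX2 score, for RUNX2 peaks with no MTA1 peak within 1 kb and for those overlapping one. The medians of the former are lower in each range, 204 against 274 bp in the lowest and 380.5 against 446 bp in the highest.

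Few RUNX2-only peaks lay close to each other, a share that depends on how many peaks the rule admits. With a distance of 12500 bp between edges, 80 of them (5.54%, 4.42 to 6.85) had another RUNX2-only peak nearby, as 40 pairs with no larger group. At 5 kb there were 15 pairs, and at 50 kb 79 pairs and 6 groups of 3. Another RUNX2 peak of any score lay within 12500 bp of 896 (62.0%, 59.5 to 64.6), against a weighted 71.1% of shared peaks. Another strong RUNX2 peak did so at 388 (26.9%) against 32.1%, a difference of −5.22 points (−7.72 to −2.73). No other RUNX2 peak lay within 100 kb of 65 (4.50%, 3.49 to 5.70) against 1.71%. Their surroundings also held somewhat fewer MTA1 peaks, a median of 5 between 1 and 100 kb away (mean 5.53), against a weighted median of 6 (mean 7.23) around shared peaks. The regions were chosen by missing MTA1 peaks, so this difference is not independent of the rule. Most RUNX2-only peaks still had RUNX2 and MTA1 peaks in their wider neighbourhood.

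The strongest pair lay in SIN3B, which encodes the scaffold of a histone deacetylase corepressor complex other than NuRD. It joined chr19:16876913-16877463 (score 66.7, 551 bp) and chr19:16877684-16877927 (score 44.5, 244 bp), 0.22 kb apart. A further region in the same gene at chr19:16861789-16862109 scored 37.6, which made it a group of 3 over 16.1 kb. That stretch also held 1 shared peak and 1 MTA1 peak. The next pairs by summed score lay at WNT2B, a WNT ligand (63.0 and 19.4), beside CXADR, a junction protein and virus receptor (40.7 and 32.9), in LSM14A, a protein of RNA processing bodies (48.0 and 18.4), and in TLN1, talin, which links integrins to actin (49.5 and 16.7). The spans of these 5 pairs were 1.015 to 9.60 kb.

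The share of strong RUNX2 peaks without MTA1 differed between chromosomes. It was highest on chromosome 4, with 80 of 389 (20.6%, 16.7 to 24.9), followed by chromosome 15 (16.4%, 12.4998 to 20.8), X (16.3%, 11.6 to 22.1) and 6 (15.9%, 13.1 to 19.04). It was lowest on chromosome 19, with 42 of 696 (6.03%, 4.38 to 8.07), and next on chromosome 17 (8.08%, 6.08 to 10.5). The intervals of chromosomes 4 and 6 lie above the 12.2% of all strong peaks, and so does that of 15, while those of 17 and 19 lie below it. Per megabase, RUNX2-only peaks ranged from 0.218 on X to 0.717 on chromosome 19 and shared peaks from 1.09 to 11.0 on the same chromosomes. Thus chromosome 19 was densest in both kinds but far more so in shared peaks.

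Chromosome 19 is the most gene-dense, at 24.8 protein-coding genes per Mb, and chromosome 4 had 4.04. Across the 23 chromosomes the share without MTA1 had a Spearman correlation of −0.50 and a Pearson correlation of −0.66 with gene density, and without chromosomes 17 and 19 these were −0.35 and −0.41. The points share both libraries, and this is a description. With peaks at gene ends left out, 16.4% of the 6889 remaining strong peaks lacked MTA1 (15.6 to 17.3). Chromosome 4 was still at 25.7% (20.6 to 31.4), X at 23.8% (16.5 to 32.3) and 6 at 21.3% (17.2 to 25.8), and chromosomes 19, 20 and 17 were at 11.6%, 11.8% and 12.0%. The order of the extremes was thus much the same away from gene ends.

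**Figure D5:**
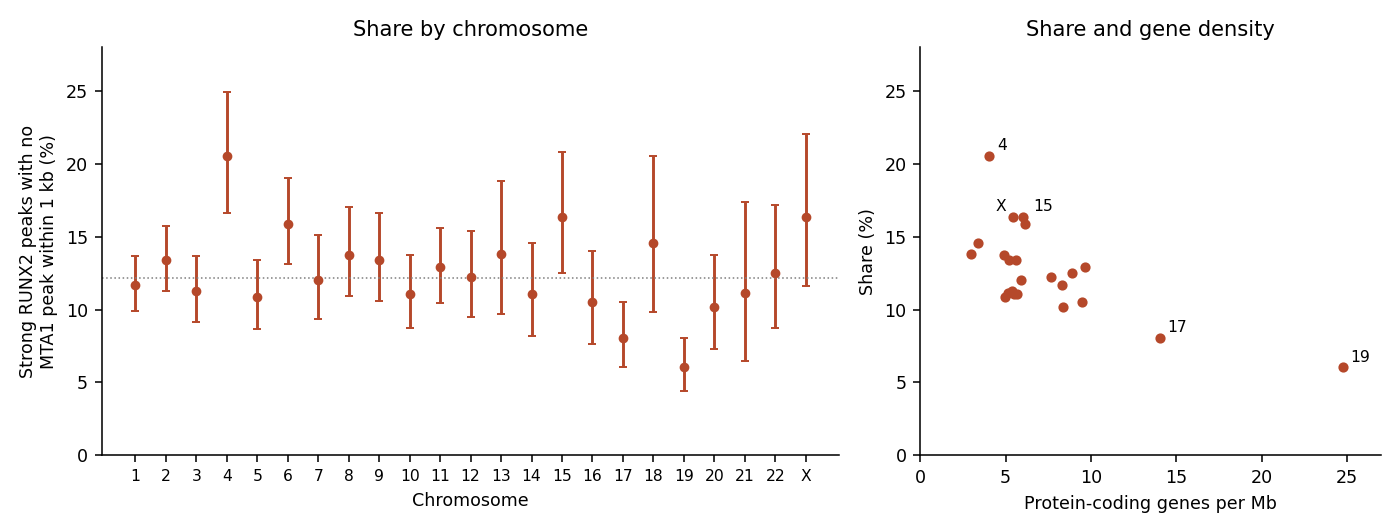
Left, share of strong RUNX2 peaks with no MTA1 peak within 1 kb on each chromosome, with exact 95% intervals, and the value of 12.2% over all of them (dotted). Right, the same shares against protein-coding genes per Mb, 1 point for each chromosome. Chromosome 4 is highest at 20.6% and chromosome 19 lowest at 6.03%.

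The 20 RUNX2-only peaks with the highest scores ran from 67.96 down to 46.2 and were 230 to 662 bp wide. Of these, 12 lay inside a gene, 4 at a gene end and 4 between genes, and 14 overlapped a protein-coding gene. An MTA1 peak lay within 5 kb of 6 of them. The highest, chr9:108776987-108777391, was intergenic, 77.2 kb from ACTL7B, a gene of the testis, with the nearest MTA1 peak at 91.9 kb. The second was the SIN3B region above, and the third was chr17:38591855-38592253 (score 63.8), in SRCIN1, which encodes an adaptor that restrains SRC kinase, 6.98 kb from an MTA1 peak. WNT2B followed at chr1:112522571-112523059 (score 63.0, MTA1 at 20.5 kb). A region at chr8:90520841-90521162 (score 59.3) lay in a long non-coding RNA gene, 101 kb from TMEM64.

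A further 7 of these strongest regions lay inside protein-coding genes. PRKCE, a protein kinase C isoform, held chr2:45821470-45821860 (score 50.7, MTA1 at 5.15 kb). DAG1, dystroglycan, the laminin receptor, held chr3:49476662-49477050 (score 50.5, MTA1 at 6.04 kb). RIN3, which acts on the endosomal GTPase RAB5, held chr14:92625282-92625617 (score 50.5, MTA1 at 21.6 kb). NRP1, a co-receptor for VEGF and semaphorins, held chr10:33248722-33248988 (score 50.04, MTA1 at 9.81 kb). CAST, calpastatin, the inhibitor of calpains, held chr5:96657188-96657427 (score 47.4, MTA1 at 4.50 kb). ANKS1A, an adaptor of Eph receptors, held chr6:34912817-34913063 (score 48.7, MTA1 at 9.21 kb). DHRSX, an oxidoreductase gene, held chrX:2385265-2385494 (score 58.7, MTA1 at 6.46 kb).

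The remaining ones had other settings. The region at chr10:36534575-36534946 (score 54.2) was 591 kb from ANKRD30A, a breast differentiation antigen, but only 1.36 kb from an MTA1 peak. The region at chr20:11261477-11261828 (score 51.3) was 587 kb from JAG1, a Notch ligand. DUSP5, a phosphatase of ERK, lay 11.0 kb from chr10:110522512-110522764 (score 47.1). ANKEF1 lay 56.7 kb from a region scoring 49.4, and SLC30A4-AS1 overlapped a region of 599 bp scoring 46.2. The 5 regions farthest from any annotated gene, 125 to 211 kb from one, had PCDH19, TRPS1, NDST4, VWC2 and VEGFC as nearest coding genes and scores of 18.3 to 35.7. TRPS1 encodes a GATA-type repressor known in breast epithelium, and its region (chr8:115219008-115219277, score 35.7) lay 189 kb from the gene.

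At ends of protein-coding genes the highest scores were those near TLN1 (49.5, 2.36 kb from the end), PTPN22 (47.5, 0.026 kb) and SIN3B (44.5, 2.54 kb). They were followed by PCNX4 (44.5, 2.63 kb), GFOD1 (43.6, 2.16 kb), CCIN (41.7, 2.59 kb), KLRC4-KLRK1 (41.6, 2.66 kb) and MED12L (41.4, 0.43 kb). Of these 8, only those of PTPN22 and MED12L had their centre within 1 kb of the end. MED12L encodes a paralog of a Mediator kinase module subunit, and CCIN a cytoskeletal protein of sperm.

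The RUNX2-only peaks had 1267 different protein-coding genes as their nearest (6.34% of 19970), and shared peaks had 6187 (31.0%). The lists had 784 genes in common, 61.9% of the former and 12.7% of the latter, which leaves 483 genes (38.1%) with a RUNX2-only peak and no strong shared one. One region was assigned to 1118 genes, 2 to 123, 3 to 24 and 4 to 2. The nearest coding gene had an MTA1 peak within 3 kb of one of its ends for 919 RUNX2-only peaks (63.6%, 61.1 to 66.1) against a weighted 80.1%, and a RUNX2 peak there for 1005 (69.6%) against 81.0%. Among peaks over 3 kb from coding gene ends, these shares were 63.7% against 69.0% and 66.1% against 70.4%. Most regions without MTA1 were thus nearest to a gene with an MTA1 peak at an end, but the share over all coding genes was not computed. Shared peaks at a coding gene end can count their own MTA1 peak, so the comparison over all peaks is partly set by the rule.

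SLIT2 and JCAD had 4 regions each. SLIT2 encodes a secreted ligand of ROBO receptors that guides axons and migrating cells, and 3 of its regions lay inside it with scores of 24.8, 19.9 and 15.6, while the fourth, at 29.7, was 315 kb away. JCAD encodes a protein of endothelial cell junctions, and its regions, with scores of 26.2, 23.4, 18.7 and 15.6, lay 36.6 to 70.5 kb outside it. After SIN3B, the genes with 3 regions and the highest summed scores were PRKCE (50.7, 35.2 and 15.6), HMGA2 (38.3, 28.3 and 21.5), ABLIM1 (44.3, 21.7 and 19.95), TNC (36.4, 25.1 and 21.6) and GULP1 (32.5, 27.1 and 21.0). HMGA2 encodes an architectural chromatin protein, ABLIM1 an actin-binding LIM protein, TNC the matrix protein tenascin-C and GULP1 an adaptor for engulfment. Only 1 TNC region was inside the gene, and no GULP1 region was. PRKCE was also the nearest gene of 9 shared peaks, HMGA2, ABLIM1 and TNC of 5 each, and SLIT2, JCAD, SIN3B and GULP1 of 1 each. NFIB, singled out after its values were seen, had 3 regions (23.01, 19.7 and 15.2).

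Whether a gene had a region went with its length. Of genes spanning under 10 kb 2.30% had one, of those of 10 to 50 kb 4.41%, of 50 to 200 kb 9.89% and of 200 kb and over 21.6%. The same classes had a shared peak at 18.5%, 30.1%, 40.9% and 52.5%. The median span was 77.1 kb for genes with a RUNX2-only region, 40.4 kb for genes with a shared peak and 24.2 kb for all coding genes. The gene lists that follow should be read beside these shares, since their genes differ in length.

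Of 12 genes of the RUNX family and its cofactors (median span 104 kb), 4 had a RUNX2-only region and 5 a shared peak. RUNX2 itself had a region inside it at chr6:45543454-45543790 (score 22.9, MTA1 at 56.0 kb) and a region 147 kb away (score 28.1). RUNX3, the paralog, had 2 regions inside it, at chr1:24949382-24949636 (score 16.2) and chr1:24955154-24955386 (score 24.3), with the nearest MTA1 peaks 101 and 107 kb away and no shared strong peak at the gene. TLE1 and TLE3, Groucho-type corepressors that RUNX proteins recruit, had 2 each. The TLE1 regions scored 23.3 and 25.7 at 152 and 92.3 kb from the gene, and the TLE3 regions 20.6 and 19.7 at 98.74 and 148 kb. TLE3, like RUNX3, had no shared strong peak.

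Of 27 integrins and focal adhesion genes (median span 86.0 kb), 6 had a region and 23 a shared peak. Those with a region included TLN1, the actinin ACTN1 (score 30.9, 1.13 kb from an MTA1 peak), the kinase PTK2 (25.9 and 18.2), the integrin ITGB5 (17.7) and the tensin TNS3 (25.7, 18.1 and 15.6). The TNS3 regions scoring 25.7 and 18.1 lay 366 and 41.9 kb from the gene.

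The remaining lists had few regions. Of 19 genes of bone matrix and osteoblasts, in which RUNX2 is best known, 3 had one and 6 a shared peak. The 3 were TNFRSF11B and the ligands BMP2 (25.4, 392 kb from the gene) and BMP4 (21.5, 279 kb). TNFRSF11B encodes osteoprotegerin, a decoy receptor that restrains osteoclasts, and its regions lay 130 kb (35.9) and 79.6 kb (17.998) away. Of 19 genes of the TGF-beta pathway, 2 had a region and 12 a shared peak. The 2 were the signal transducer SMAD3 (40.9 inside, 21.0 at 68.1 kb) and the binding protein LTBP1 (19.2 and 16.005, both inside). Of 17 genes of the epithelial-mesenchymal transition, 2 had one and 13 a shared peak, both of the 2 being E-cadherin repressors, ZEB2 (30.2, 1386 kb away) and ZEB1 (15.1, 24.8 kb away). Of 21 luminal and epithelial genes, 2 had one and 9 a shared peak, the transcription factor GATA3 (17.98, 71.5 kb away) and E-cadherin, CDH1 (15.4, inside).

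A single gene each had a region in the other lists. It was HDAC2, a deacetylase subunit, of 13 NuRD subunits (25.6, 26.0 kb away and 1.13 kb from an MTA1 peak), of which 9 had a shared peak. It was MAFF, a small MAF protein, of 14 AP-1 factors (22.8, 7.18 kb away), of which 8 had a shared peak. Of 18 Hippo genes it was the kinase LATS2 (34.1, inside), and 12 had a shared peak. A comparison list of 22 ribosomal protein genes held short genes, with a median span of 4.48 kb. Of these, RPLP1 alone had a region (18.9, 12.3 kb away) and 14 had a shared peak. Of 14 genes that the study names as targets, PPARA, a nuclear receptor of lipid metabolism, alone had one (chr22:46159813-46160143, score 26.5), inside the gene and 15.6 kb from the nearest MTA1 peak, and 8 had a shared peak. PPARA had no strong shared peak. RUNX2 peaks below the score border were not counted here, so a weaker shared peak at its promoter was not tested. The paper reports RUNX2 and MTA1 together at the PPARA promoter by sequential chromatin immunoprecipitation, and the count of strong peaks does not bear on that result.

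The borders of the rule cut through continuous values. There were 187 RUNX2-only peaks with a score under 16, the lowest near SLC26A9, NFATC1 and SHISAL1 at 15.0 each. Just below the border, RUNX2 peaks near LOXL2, GRIK5 and DLX2 scored 15.0 when rounded and were left out. Between 14 and 15 there were 206 RUNX2 peaks without MTA1 within 1 kb, 18.7% of peaks of that score. On the side of MTA1, the nearest peaks lay 1.005, 1.007 and 1.016 kb from regions near ZNF324, NTF3 and TMEM184B, and 0.995, 0.992 and 0.988 kb from strong peaks near SART3, MYEOV and LTF, which were left out. An MTA1 peak lay between 1 and 2 kb from 147 of the RUNX2-only peaks.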

How the data were processed

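The labels give 1 library of MDA-MB-231 cells for each antibody, so the groups are single libraries. The authors deposited 1 peak list for each library, with a score for every peak whose scale is not stated. The submitters' processing notes name CASAVA 1.4, Bowtie 0.12.8, MACS, MACS2 and hg19, without settings, and reads were not used, so depth is unknown. The listed positions were checked against RefSeq GRCh38.p14: a gene start lay within 1 kb of 18.3% of the RUNX2 list and 25.5% of the MTA1 list, falling to 3.16% and 3.31% once all positions were moved by 100 kb. Positions are 1-based.

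Peaks were compared by the gap between edges with pandas 2.3.3 and numpy 2.4.6 under Python 3.11.15. Intervals came from scipy 1.17.1 and plots from matplotlib 3.10.9. Genes were 59094 RefSeq genes, 19970 of them protein-coding. The gene table has no strand, so either gene end was used in place of the start, and starts came from a promoter table of 27195 genes, which also gave the sequences. The RUNX2 peaks on Y (6) and mitochondrial DNA (17) were left out. The nearest protein-coding gene was the overlapping one or the one with the smallest gap. Shares carry exact Clopper-Pearson 95% intervals, and differences to weighted shares a normal interval. No p-value was computed, since peaks of 1 library are not replicates. The interval steps were tested on simulated data.

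The regions and gene lists were chosen with earlier results of these data known. Named genes are those of the 20 highest scores, the 8 highest at coding gene ends, the 5 farthest from a gene, up to 8 genes with the most regions, the 5 strongest clusters, the 3 widest peaks, the borders of the rule, and list genes nearest to a region. The regions of 1 gene and the result of 1 gene list are not reported here. Alternatives were other score and distance borders, stronger MTA1 peaks only, merged RUNX2 peaks, other windows, coding genes only, other cluster distances and no weighting. Starts in place of ends, leaving out chromosomes 4 and 19 and any base of a promoter window were added after seeing the data.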

Additional observations from a re-analysis of the deposited data

How the results depend on the processing

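Of 76 values recomputed under another setting, 40 stayed within 1.5 times the count or inside the 95% interval of the value given. A further 36 moved and 0 changed sign. Only the differences to shared peaks could change sign, as counts, shares, distances and widths cannot. The number of regions became 3210 at a score of 10 or more, 411 at 25 or more, 832 with no MTA1 peak within 10 kb, and 3038 against MTA1 peaks at or above their median score. The share at gene ends became 16.98% and 15.6% with no MTA1 peak within 5 and 10 kb, 8.17% and 32.5% with windows of 1 and 5 kb, 10.3% with protein-coding genes only and 10.2% with annotated starts. Its difference to shared peaks became −22.1 points at a score of 25 or more, −30.4 and −31.8 with no MTA1 peak within 5 and 10 kb, and −28.6 and −22.1 with windows of 1 and 5 kb. With protein-coding genes only, 45.4% lay inside genes and 44.3% were intergenic, with differences of 11.0 and 15.0 points. The median distance to a coding gene end became 27.2 kb at a score of 25 or more and 37.9 and 43.3 kb with no MTA1 peak within 5 and 10 kb. The median width became 197 bp at a score of 10 or more, 263 bp at 25 or more, 241 bp against the stronger MTA1 peaks and 228 bp with RUNX2 peaks merged. Its difference to shared peaks became −65 bp at a score of 10 or more, −94 bp at 25 or more, −106 bp with RUNX2 peaks merged and −104 bp unweighted. The share in clusters became 9.53% and 0.973% at scores of 10 and 25 or more, 4.15% with no MTA1 peak within 5 kb, 10.2% against the stronger MTA1 peaks, and 2.08% and 12.2% with distances of 5 and 50 kb. Fewer or more peaks enter by the construction of these settings, and other causes were not tested. The motif search in 100 bp around peak centres was not run, as it needs a genome sequence. No paired analysis was possible because each antibody has 1 library. Depth is unknown, so a weak MTA1 signal below the calling threshold limits each statement on its absence.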
